A study of Mus musculus with 22 samples.

Results

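The cytosolic ribosomal protein genes of mouse Kupffer cells, the macrophages that reside in the liver, were followed through 1-kb windows of H3K27ac ChIP-seq, each centred on a peak of open chromatin (ATAC-seq). Members were all autosomal windows that the deposited annotation assigned to a protein-coding gene named Rpl or Rps followed by a digit, or named Rplp0, Rplp1, Rplp2 or Rpsa, without the ribosomal protein S6 kinases. The rule found 286 windows at 78 genes, out of 96381 windows in the series. Of these, 94 windows at 69 genes were classed as promoter. The other 192 were classed as intergenic (94), intron (77), transcription end (9), exon (5), 3′ UTR (4) or 5′ UTR (3). For 28 of the 286 windows the deposited peak list named no open chromatin peak from control cells. H3K27ac was measured in cells sorted from control mice of the inbred strains A/J, BALB/cJ and C57BL/6J, with 3 libraries each. It was also measured in 3 libraries of CB6F1/J hybrids of BALB/cJ and C57BL/6J, whose tags were assigned to a parental allele. By the methods of the study the mice were male and 8 to 12 weeks old, and the cells were gated as CD45 positive, CD146 negative, F4/80 high and CD11b intermediate. Input DNA libraries (7 from the parental strains) gave the background. The comparison asks how far natural genetic variation between strains moves the acetylation of a housekeeping gene family, at its promoters and elsewhere.

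Ribosomal proteins assemble with ribosomal RNA into the large (Rpl genes) and small (Rps genes) subunits of the ribosome, and Rplp0, Rplp1 and Rplp2 form the stalk that engages the translation factors. The genes are transcribed at high rates in nearly every cell, and many of their transcripts begin in a run of pyrimidines, the 5′ terminal oligopyrimidine tract, through which the mTOR pathway adjusts their translation. H3K27ac, acetylation of lysine 27 of histone H3, marks active promoters and enhancers. A window counts as a promoter here when it lies near an annotated transcription start, and its centre was at most 977 bp from the start in these genes. The other windows carry the name of the gene with the nearest start, a median of 10562 bp away and up to 246847 bp, so the name is no evidence that a distant window acts on that gene.

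RefSeq promoter sequences (GRCm38.p6) matched 57 of the 78 genes. The stretches from 100 bases before the annotated start to 15 after it are shown for genes of the highest promoter acetylation (Rpl19, Rps28, Rpl27a), of the lowest (Rps10, Rps24) and for 3 genes with a window that differed between strains (Rpl38, Rpl34, Rpl13). Capitals mark the longest unbroken run of C and T that reached within 5 bases of the start, and any CGGAAG, the core recognised by ETS family factors, that lay wholly before the start, on either strand.
Rpl19, chr11:98026610-98026724, plus strand: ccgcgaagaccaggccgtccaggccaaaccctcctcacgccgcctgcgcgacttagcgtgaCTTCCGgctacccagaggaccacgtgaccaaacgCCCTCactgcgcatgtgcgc
Rps28, chr17:33824548-33824662, minus strand: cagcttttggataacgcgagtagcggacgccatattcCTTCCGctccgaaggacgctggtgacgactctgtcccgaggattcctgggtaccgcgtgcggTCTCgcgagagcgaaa
Rpl27a, chr7:109519095-109519209, plus strand: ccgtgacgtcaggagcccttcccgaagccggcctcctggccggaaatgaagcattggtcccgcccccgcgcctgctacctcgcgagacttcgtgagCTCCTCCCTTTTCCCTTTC
Rps10, chr17:27635230-27635344, minus strand: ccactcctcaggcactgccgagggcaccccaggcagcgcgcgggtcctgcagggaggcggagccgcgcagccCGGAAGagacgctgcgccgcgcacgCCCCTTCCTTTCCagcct
Rps24, chr14:24490578-24490692, plus strand: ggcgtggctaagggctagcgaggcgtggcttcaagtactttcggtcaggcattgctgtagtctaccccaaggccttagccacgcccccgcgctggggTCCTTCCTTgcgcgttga
Rpl38, chr11:114668480-114668594, plus strand: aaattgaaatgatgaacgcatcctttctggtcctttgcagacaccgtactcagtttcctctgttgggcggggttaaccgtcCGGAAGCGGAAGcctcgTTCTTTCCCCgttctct
Rpl34, chr3:130730323-130730437, minus strand: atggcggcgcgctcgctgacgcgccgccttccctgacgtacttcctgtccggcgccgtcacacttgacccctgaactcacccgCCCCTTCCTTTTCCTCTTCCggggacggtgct
Rpl13, chr8:123102250-123102364, plus strand: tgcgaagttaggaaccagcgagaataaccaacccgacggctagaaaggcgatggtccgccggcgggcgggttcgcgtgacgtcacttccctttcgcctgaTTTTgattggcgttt
A C or T run of at least 8 bases at the start was found in 22 of 57 ribosomal protein promoters (38.6%), against 9.33% of 27025 promoters in the table and 7 of 69 promoters of mitochondrial ribosomal proteins (10.1%). In the 250 bases before the start, CGGAAG on either strand was present in 30 of 57 (52.6%), against 13.8% of all promoters and 44.9% of the mitochondrial set. A GC box (GGGCGG, either strand) was present in 28 of 57 (49.1%, against 32.7%) and TATAAA in 2 of 57 (3.51%, against 12.9%). The run was long in genes at both ends of the acetylation range, 20 bases in Rpl27a and 13 in Rps10, and short in Rpl19 (5 bases) and Rps28 (4 bases).

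The parental H3K27ac libraries held 2291426 to 12980348 tags in windows, and the 3 libraries numbered 2 were the shallowest (at most 2960953 tags). Levels are given as normalized counts, that is tags per window scaled to the mean effective library size. Kupffer cell genes were marked (7 of 10 listed markers had a promoter window, from 74.1 at Vsig4 to 338.3 at Spic). Among all promoter windows Vsig4 lay at percentile 37.5 and Spic at 89.6. Of the 5 endothelial markers, Lyve1 and Kdr had a promoter window, at 11.1 and 3.55. None of the listed hepatocyte, stellate, B cell or T and NK cell markers had one. Of the 4 neutrophil markers, Csf3r and S100a8 had one, at 422.6 (percentile 94.7, above every Kupffer cell marker) and 24.8 (percentile 18.7). The summed level of the neutrophil list lay between 371.0 and 476.7 in A/J libraries, between 357.1 and 437.2 in those of BALB/cJ, and between 409.8 and 706.6 in those of C57BL/6J. The part of other cell types in the results was not tested, and in bulk chromatin fewer cells that carry the mark and less mark per cell cannot be told apart.

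Ribosomal protein promoters were strongly acetylated in Kupffer cells of all 3 strains. Their median level over the 94 windows was 190.2 normalized counts (quartiles 134.6 and 252.3), against 112.5 over all 14635 promoter windows. Taking for each gene the promoter window nearest its start, 63 of 69 genes lay above that median of all promoters. The library medians over the 94 windows were 187.1 ± 10.2 (A/J), 192.0 ± 21.0 (BALB/cJ) and 183.7 ± 13.0 (C57BL/6J) (SD, n = 3), so the strains overlapped. Of all tags in windows, these promoters held 0.262% ± 0.00368 (A/J), 0.267% ± 0.0178 (BALB/cJ) and 0.253% ± 0.00619 (C57BL/6J).

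**Figure D1:**
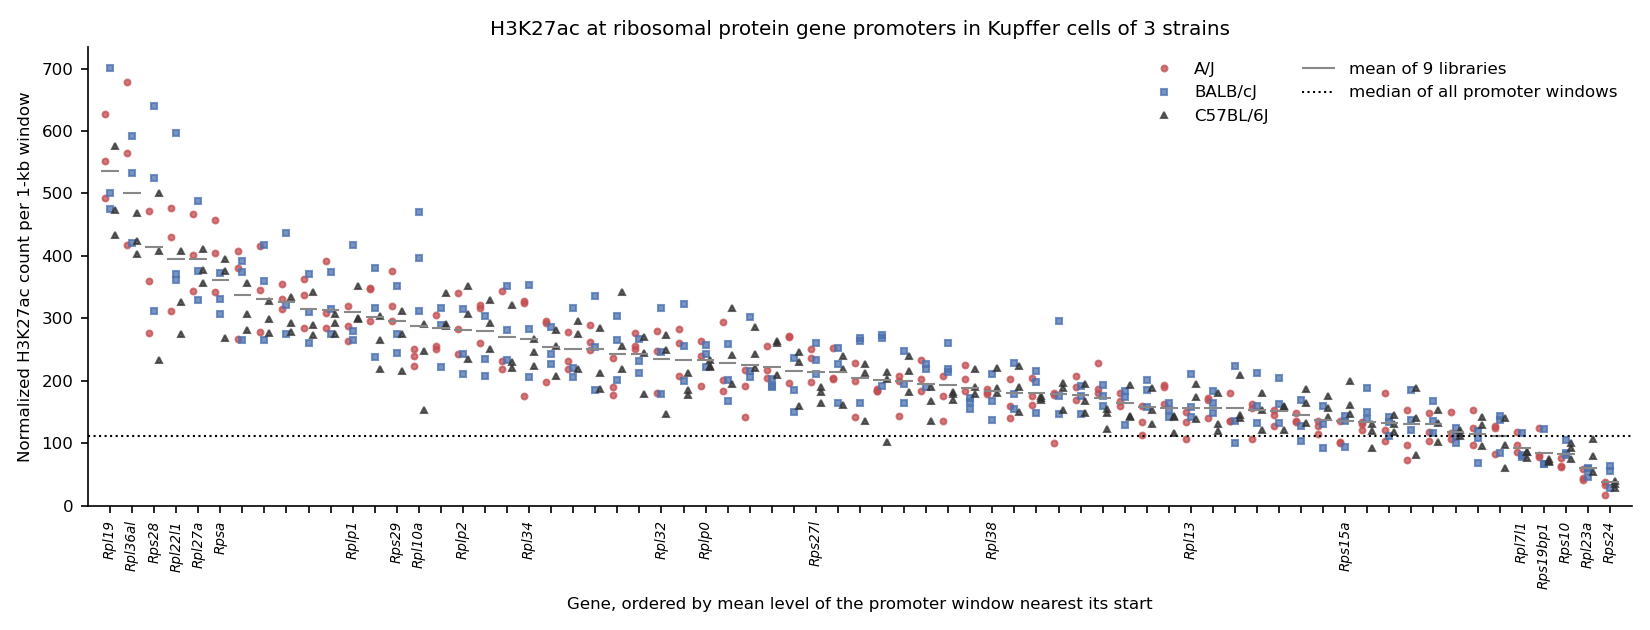
Normalized H3K27ac count in the promoter window nearest the start of each of 69 ribosomal protein genes, in 9 libraries (points by strain, grey bars the mean of 9), with names for the genes described in the text. Genes run from Rpl19 at 536.7 to Rps24 at 37.9, and 63 of 69 means lie above the dotted median of all promoter windows, 112.5.

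Levels ranged 14.2-fold between genes, far more than within a gene between strains. Rpl19, a large subunit protein, was highest, with 492.5, 551.7 and 627.4 in A/J, 474.5, 501.3 and 700.3 in BALB/cJ and 473.0, 433.1 and 576.3 in C57BL/6J. It was followed by Rpl36al (mean of 9 libraries 500.3), the autosomal copy of an X-linked large subunit gene, then Rps28 (413.7) of the small subunit. Rpl22l1 (395.1), a paralog of Rpl22, and Rpl27a (394.5) differed by less than the spread of their libraries. At the other end, Rps24 of the small subunit had 37.5, 17.8 and 33.6 in A/J, 27.9, 64.1 and 56.2 in BALB/cJ and 40.0, 34.9 and 29.0 in C57BL/6J. All 9 libraries of Rps24 lay below the lowest library of Rpl19. Rpl23a (61.3), Rps10 (82.2), Rps19bp1 (84.2) and Rpl7l1 (91.9) came next. Rps19bp1 encodes a binding partner of Rps19 and is no ribosomal protein, though its name fits the rule. The low values of Rps24 and Rps10 concern the RefSeq starts. In GENCODE the Rps24 start lay elsewhere, under a promoter window named Polr3a at 55.2, and no window covered the GENCODE start of Rps10. The order of genes was much alike between strains (Spearman's rho over 69 genes 0.945, 0.933 and 0.931 for the 3 pairs of strain means, given as a description, since windows share mappability and base composition).

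The stalk genes sat in the upper part of the range. Rplp0, which anchors the stalk, had 264.3, 240.3 and 192.1 in A/J, 257.5, 242.6 and 222.7 in BALB/cJ and 233.2, 223.5 and 221.7 in C57BL/6J. Rplp1 had a mean of 309.6 and Rplp2 of 281.1. Rpsa, the small subunit protein also described as a laminin receptor, had 361.7. The log2 fold changes between strains at the 4 stalk promoter windows lay between -0.23 and 0.18. Medians were 183.6 over 51 large subunit windows and 179.6 over 31 small subunit windows. Of the paralogs, Rps27l, a target of p53, had 214.4 and Rpl7l1, a relative of Rpl7, 91.9, so paralogs were found high and low in the range.

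In every library the median H3K27ac of the promoter windows was above the median of the other windows. By the mean of 9 libraries the medians were 190.2 and 24.4. The whole series showed the same direction, with 112.5 over all promoter windows and 23.3 over all other windows. The medians were taken over all windows of each kind, so promoter and other windows were not compared gene by gene. Among windows with a mean count over 16, the median promoter over other log2 ratio was 1.25 ± 0.04 (A/J), 1.26 ± 0.09 (BALB/cJ) and 1.12 ± 0.09 (C57BL/6J) (SD, n = 3). The libraries ranged from 1.21 to 1.29, from 1.18 to 1.35 and from 1.06 to 1.22, so the strains overlapped. The size of the ratio depended on the windows taken in. Without the filter it was 3.14, 3.11 and 3.05, since 83 of 192 other windows, but 1 of 94 promoter windows, fell below a mean of 16.

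Among the other windows the level was high close to the start and low beyond 2 kb. The 47 windows within 2 kb of a start, 39 of them downstream of it, had a median of 154.6. Medians were 11.1 for 47 windows at 2 to 10 kb, 13.3 for 61 at 10 to 50 kb and 19.7 for 37 farther away. Strong windows were also found far from the start, such as those 13097 bp and 13409 bp upstream of Rpl21, which overlap each other (286.1 and 277.0). By GENCODE, 46 of the 192 other windows overlapped the gene they are named for, and 61 overlapped only another protein-coding gene. Over pooled input, both scaled to the tags in windows, the median H3K27ac ratio at promoter windows was 2.54 (A/J), 2.44 (BALB/cJ) and 2.64 (C57BL/6J), and at the other windows 0.40, 0.40 and 0.37. By this scaling a ratio under 1 is a smaller share of the H3K27ac tags in windows than of the input tags, not a level below input. The C57BL/6J input was 1 library, with a median of 5.5 tags at these promoter windows, and windows with under 3 input tags were left out.

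**Figure D2:**
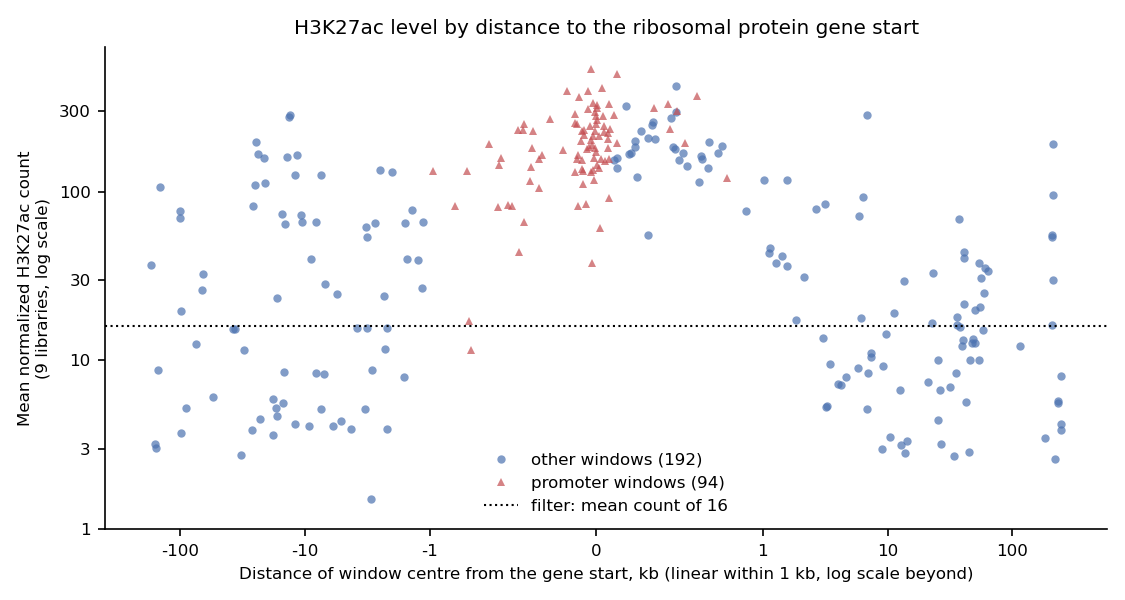
Mean normalized H3K27ac count of the 286 windows (log scale) against the distance of the window centre from the gene start in kb (linear within 1 kb, log beyond), promoter windows in red and other windows in blue. Promoter windows cluster around 190.2, while the other windows at 2 to 10 kb have a median of 11.1, under the dotted filter at 16.

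The 9 genes without a window classed as promoter were Rpl5, Rpl8, Rpl15, Rpl21, Rpl24, Rpl34-ps1, Rpl37rt, Rps9 and Rps27a. Most were marked at the start under another class. Rpl21 had a 5′ UTR window 180 bp past its start at 321.7, Rps9 an intron window 231 bp past it at 199.4, Rpl8 one at 168.6, Rpl24 a 5′ UTR window at 159.2 and Rpl5 an intron window at 137.6. The starts of Rpl15 and Rps27a lay under promoter windows named for the neighbouring genes Nkiras1 (208.7) and Clhc1 (232.1). The 2 windows of Rpl34-ps1 that lay nearest a start, at 258.1 and 187.4, overlap the promoter window of Rpl34. Rpl37rt had only intron windows 35.7 to 47.7 kb past its start, at 12.7 to 18.04. Of 73 subunit genes listed and found in GENCODE, only Rps2 and Rps25 had no window by name, and the start of Rps25 lay under a promoter window named Trappc4 at 271.9.

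Few ribosomal protein promoter windows were called different between strains, as was the case for promoter windows of all genes. A window was called different when its edgeR quasi-likelihood adjusted p, over all 60387 windows with a mean count over 16, was under 0.05 and its fold change over 2. Among the 93 promoter windows tested, none was called between A/J and BALB/cJ, where 1.55% of all 12556 promoter windows were. By an unadjusted p under 0.05, 5 of the 93 passed, against 1041 of the 12556, and DESeq2 called none of the 93 either. Between A/J and C57BL/6J 1 was called (1.08%, all promoters 2.76%), and between BALB/cJ and C57BL/6J 1 (1.08%, all promoters 3.73%). By unadjusted p, 6 and 9 of the 93 passed in these comparisons, against 1517 and 1662 of the 12556. The counts are low, and the gap to all promoters was not tested. The median log2 fold changes over the promoter windows were -0.01, 0.05 and 0.05, against 0.02, 0.04 and 0.02 over all promoter windows. In all 3 comparisons the fold change stayed within 0.5 on the log2 scale at 83 of 93 windows (89.2%), against 72.3% of all promoter windows. The 2 sets were not matched for level (medians 190.2 and 112.5), and the part of level in this gap was not tested.

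None of the 69 promoter windows nearest a start was called in any strain comparison, where 4.78% of the 9504 nearest promoter windows of all genes were. The ratio of the highest to the lowest strain mean had a median of 1.203 over the 69 genes. It exceeded 1.5 in 4 genes, Rpl10a (1.70), Rps24 (1.67), Rpl23a (1.66) and Rps15a (1.502).

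Rpl10a, a large subunit protein, came closest to the threshold. Its window 643 bp upstream had 166.4, 166.1 and 150.1 in A/J, 260.9, 242.6 and 328.6 in BALB/cJ and 126.6, 107.1 and 180.8 in C57BL/6J. All BALB/cJ libraries lay above all others. The log2 fold change of BALB/cJ over C57BL/6J was 0.98 ± 0.23 (SE), adjusted p = 0.00447, and of A/J over BALB/cJ -0.80 ± 0.23, adjusted p = 0.0437, neither past 2-fold. DESeq2, and edgeR without composition scaling, without BALB/cJ library 2 or without C57BL/6J library 3, put the first past 2-fold. The window 129 bp upstream, which overlaps it, had a log2 fold change of 0.75 ± 0.24 (adjusted p = 0.0400) between BALB/cJ and C57BL/6J, and the window 310 bp past the start 0.68 ± 0.25 (adjusted p = 0.0850).

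Both called promoter windows were centred upstream of the start, and neither was the window nearest to it. The Rpl13 window still covered the start, while the Rpl38 window ended before it. The Rpl13 window at chr8:123101389-123102389, 461 bp upstream of this large subunit gene, had 27.2, 29.7 and 45.3 in A/J, 26.2, 29.8 and 40.9 in BALB/cJ and 71.95, 55.9 and 68.6 in C57BL/6J. C57BL/6J was above both other strains in every library. The log2 fold change of BALB/cJ over C57BL/6J was -1.01 ± 0.30 (adjusted p = 0.0299) and of A/J over C57BL/6J -0.92 ± 0.30 (adjusted p = 0.0607). The call kept its side of the threshold in 10 of 16 alternatives and was lost with DESeq2 (-0.998), with 0.5 tags rounded down (-0.999) and without BALB/cJ library 1 or 2 or C57BL/6J library 1 or 3. The window centred 28 bp past the Rpl13 start overlaps the called one. It had 130.5 ± 21.9 (A/J), 170.0 ± 35.8 (BALB/cJ) and 169.6 ± 27.7 (C57BL/6J) (SD, n = 3), with a log2 fold change of BALB/cJ over C57BL/6J of 0.01.

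The Rpl38 window at chr11:114667280-114668280, 763 bp upstream, had 9.57, 0 and 7.12 in A/J, 11.8, 27.5 and 12.4 in BALB/cJ and 13.3, 53.6 and 18.3 in C57BL/6J. The A/J values lay below all others, but at a level near the filter, and library 2 of C57BL/6J held the highest value. A/J over C57BL/6J had a log2 fold change of -1.83 ± 0.58 (adjusted p = 0.0490). The call was lost in 8 of 16 alternatives, among them without any one A/J library (adjusted p up to 0.157), and the window fell under the filter without C57BL/6J library 2 or 3. The window over the start of Rpl38 (44 bp upstream) had 182.4 ± 4.21 (A/J), 171.9 ± 37.1 (BALB/cJ) and 196.4 ± 21.8 (C57BL/6J), and the largest of its 3 log2 fold changes in size was -0.17.

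Other promoter windows with the largest changes did not pass. They included Rpl29 582 bp upstream (A/J over BALB/cJ 0.72 ± 0.26, adjusted p = 0.145) and Rpl23a 23 bp past the start (A/J over C57BL/6J -0.84 ± 0.29, adjusted p = 0.0739). The Rpl23a values were 44.9, 59.3 and 40.8 in A/J, 46.4, 59.5 and 59.9 in BALB/cJ and 79.9, 53.6 and 107.1 in C57BL/6J, which overlap. Away from promoters, Rpl26 2315 bp upstream (A/J over BALB/cJ -1.02 ± 0.41, adjusted p = 0.213) and Rplp1 208.7 kb past the start (-0.96 ± 0.28, adjusted p = 0.0543) did not pass either.

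**Figure D3:**
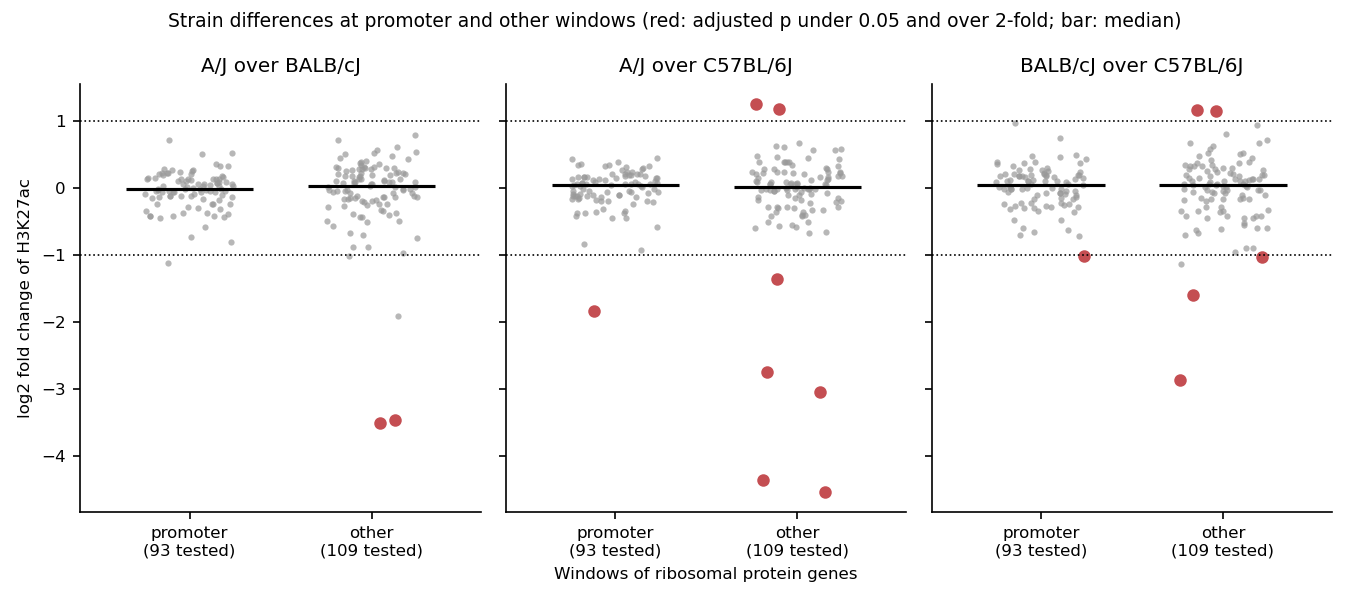
log2 fold changes of H3K27ac at the 93 promoter and 109 other windows tested, in 3 strain comparisons (each point a window, bar the median, red the called windows, dotted lines 2-fold). Medians lie near 0 in each column, and the values far from 0, down to -4.54, are nearly all at other windows.

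Away from promoters, 109 windows at 42 genes were tested. Between A/J and BALB/cJ, 2 were called (1.83%, against 4.18% of all other windows and 3.63% of all windows). Between A/J and C57BL/6J 7 were called (6.42%, against 8.23% and 7.09%), and between BALB/cJ and C57BL/6J 5 (4.59%, against 9.83% and 8.56%). These shares are near or below the background. With same-numbered libraries as blocks the counts over promoter and other windows together became 4, 8 and 8, in place of 2, 8 and 6. The added calls were Rpl38 at 97.2 kb upstream in both comparisons with BALB/cJ (A/J over BALB/cJ -1.89, adjusted p = 0.00939, and BALB/cJ over C57BL/6J -1.20, adjusted p = 0.0151), Rpl26 2315 bp upstream (A/J over BALB/cJ -1.10, adjusted p = 0.0365) and Rps20 22977 bp past the start (BALB/cJ over C57BL/6J -1.01, adjusted p = 0.0190). Leaving out BALB/cJ library 2 gave 5 calls between A/J and BALB/cJ. Without C57BL/6J library 3 the calls against that strain fell from 8 to 4 and from 6 to 3, and without A/J library 1 or 2 from 8 to 5. In any comparison 8 of the 109 were called (7.34%, against 14.1% of all other windows). They lay at 5 genes, Rpl21, Rpl32, Rpl34, Rpl38 and Rps29, all at least 3169 bp from the start. None of the 46 tested other windows within 2 kb was called, and no share over all windows at that distance was taken.

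The largest differences were 99.9 kb upstream of Rpl38, in an intergenic region with no GENCODE gene. The window chr11:114568178-114569178 had 8.83, 2.97 and 5.17 in A/J, 79.4, 77.8 and 66.5 in BALB/cJ and 154.6, 139.7 and 160.0 in C57BL/6J. The strains did not overlap and formed an order, A/J lowest and C57BL/6J highest. Its log2 fold changes were -3.51 ± 0.34 for A/J over BALB/cJ (adjusted p = 1.09e-07), -4.54 ± 0.33 for A/J over C57BL/6J (adjusted p = 5.36e-10) and -1.04 ± 0.25 for BALB/cJ over C57BL/6J (adjusted p = 0.00545). The first and second held in all 16 alternatives and the third in 14, lost without BALB/cJ library 3 or C57BL/6J library 3. The window 99526 bp upstream overlaps it and is no separate evidence, with -3.46, -4.35 and -0.90. A window 97.2 kb upstream, which does not overlap these, had 4.42, 11.9 and 1.94 in A/J, 13.5, 27.5 and 13.1 in BALB/cJ and 38.6, 23.3 and 42.8 in C57BL/6J, and was called between A/J and C57BL/6J (-3.05 ± 0.53, adjusted p = 0.000222). Pooled A/J input held 26.5, 35.5 and 27.5 tags in the 3 windows, beside a median of 32.0 over the other windows. The cause of the strain difference was not tested.

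The region is shown because it carried the largest strain difference among the members. Rpl21 follows for the same reason in the comparisons with C57BL/6J. These are 200 bases around the window centre in the mm10 (GRCm38) reference, which is the C57BL/6J sequence, on the plus strand. The letters of the A/J and BALB/cJ alleles were not used here. Capitals mark GAGGAAG (PU.1-type), TGANTCA (AP-1) or CGGAAG (ETS-type) on either strand.
Rpl38 99865 bp upstream, chr11:114568579-114568778, plus strand: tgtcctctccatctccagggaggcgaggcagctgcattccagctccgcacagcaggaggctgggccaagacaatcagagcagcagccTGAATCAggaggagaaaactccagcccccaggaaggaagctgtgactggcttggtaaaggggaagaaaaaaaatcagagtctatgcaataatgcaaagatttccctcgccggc
Rpl21 3169 bp upstream, chr5:146829622-146829821, plus strand: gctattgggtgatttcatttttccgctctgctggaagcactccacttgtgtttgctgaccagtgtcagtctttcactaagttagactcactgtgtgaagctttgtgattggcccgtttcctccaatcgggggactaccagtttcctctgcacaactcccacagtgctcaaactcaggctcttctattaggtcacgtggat
Rpl21 8150 bp upstream, chr5:146824641-146824840, plus strand: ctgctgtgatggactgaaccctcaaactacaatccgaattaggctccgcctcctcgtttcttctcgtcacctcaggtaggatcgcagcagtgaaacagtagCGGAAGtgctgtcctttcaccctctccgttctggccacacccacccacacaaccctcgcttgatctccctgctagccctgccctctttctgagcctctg
The Rpl38 stretch held 1 TGANTCA, found in 15.9% of the central 200 bases of all other windows, and the Rpl21 stretch 8150 bp upstream held 1 CGGAAG, found in 6.60%. GAGGAAG was in none of the 3, and in 22.4% of all other windows. Over the 192 other windows of ribosomal protein genes the shares were 12.5% for TGANTCA, 8.33% for CGGAAG and 20.3% for GAGGAAG. Repeat-masked sequence made up 37.3% of the Rpl38 window and 64.0% of the overlapping one 99526 bp upstream, against a median of 15.98% over the other windows.

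Rpl21 had 2 intergenic windows with more H3K27ac in C57BL/6J than in either other strain. The window 3169 bp upstream, chr5:146829221-146830221, had 14.0, 29.7 and 18.1 in A/J, 14.4, 20.6 and 17.5 in BALB/cJ and 113.3, 107.1 and 148.6 in C57BL/6J, with no overlap. The log2 fold changes over C57BL/6J were -2.75 ± 0.31 with A/J (adjusted p = 5.69e-07) and -2.87 ± 0.31 with BALB/cJ (adjusted p = 2.95e-07), both called in all 16 alternatives. The window 8150 bp upstream, chr5:146824240-146825240, had 36.8, 74.2 and 33.6 in A/J, 33.8, 61.8 and 24.8 in BALB/cJ and 114.6, 102.4 and 115.9 in C57BL/6J, again with no overlap. Its log2 fold changes were -1.36 ± 0.32 (adjusted p = 0.00599) and -1.59 ± 0.32 (adjusted p = 0.00125). The A/J call was lost without A/J library 1 or 3. At the start of Rpl21 the 5′ UTR window had 342.5 ± 5.49 (A/J), 317.4 ± 25.2 (BALB/cJ) and 305.3 ± 60.7 (C57BL/6J), and did not pass in any comparison. The strong windows 13.1 to 13.9 kb upstream were not called either.

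The remaining calls were small and lay near the filter. The window 13652 bp past the start of Rps29, a small subunit protein, overlaps the lincRNA gene Gm31447 and had 28.7, 38.6 and 42.0 in A/J, 33.8, 41.2 and 34.3 in BALB/cJ and 11.99, 16.3 and 18.3 in C57BL/6J. C57BL/6J was below all other libraries, with log2 fold changes of 1.18 ± 0.35 (A/J over C57BL/6J, adjusted p = 0.0354) and 1.17 ± 0.35 (BALB/cJ over C57BL/6J, adjusted p = 0.0318). The window 5482 bp upstream of Rpl32, in an intron of Efcab12, had 37.5, 41.5 and 24.6 in A/J, 31.2, 18.3 and 27.7 in BALB/cJ and 17.3, 14.0 and 11.3 in C57BL/6J (A/J over C57BL/6J 1.26 ± 0.39, adjusted p = 0.0439). It kept its call in 5 of 16 alternatives, and lost it without A/J library 1 or 2 and without any one C57BL/6J library. The intergenic window 66.3 kb upstream of Rpl34 had 22.8, 17.8 and 21.3 in A/J, 43.1, 43.5 and 32.1 in BALB/cJ and 14.7, 21.0 and 17.6 in C57BL/6J (BALB/cJ over C57BL/6J 1.16 ± 0.35, adjusted p = 0.0326). BALB/cJ was above both other strains in every library. The Rps29 calls were lost in 7 of 16 alternatives each, among them without C57BL/6J library 1 or 3, without A/J library 2 or 3 for the first and without any one BALB/cJ library for the second. The Rpl34 call was lost in 7, among them without any one BALB/cJ library and without C57BL/6J library 1 or 3. At the starts of these 3 genes no promoter window was called.

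**Figure D4:**
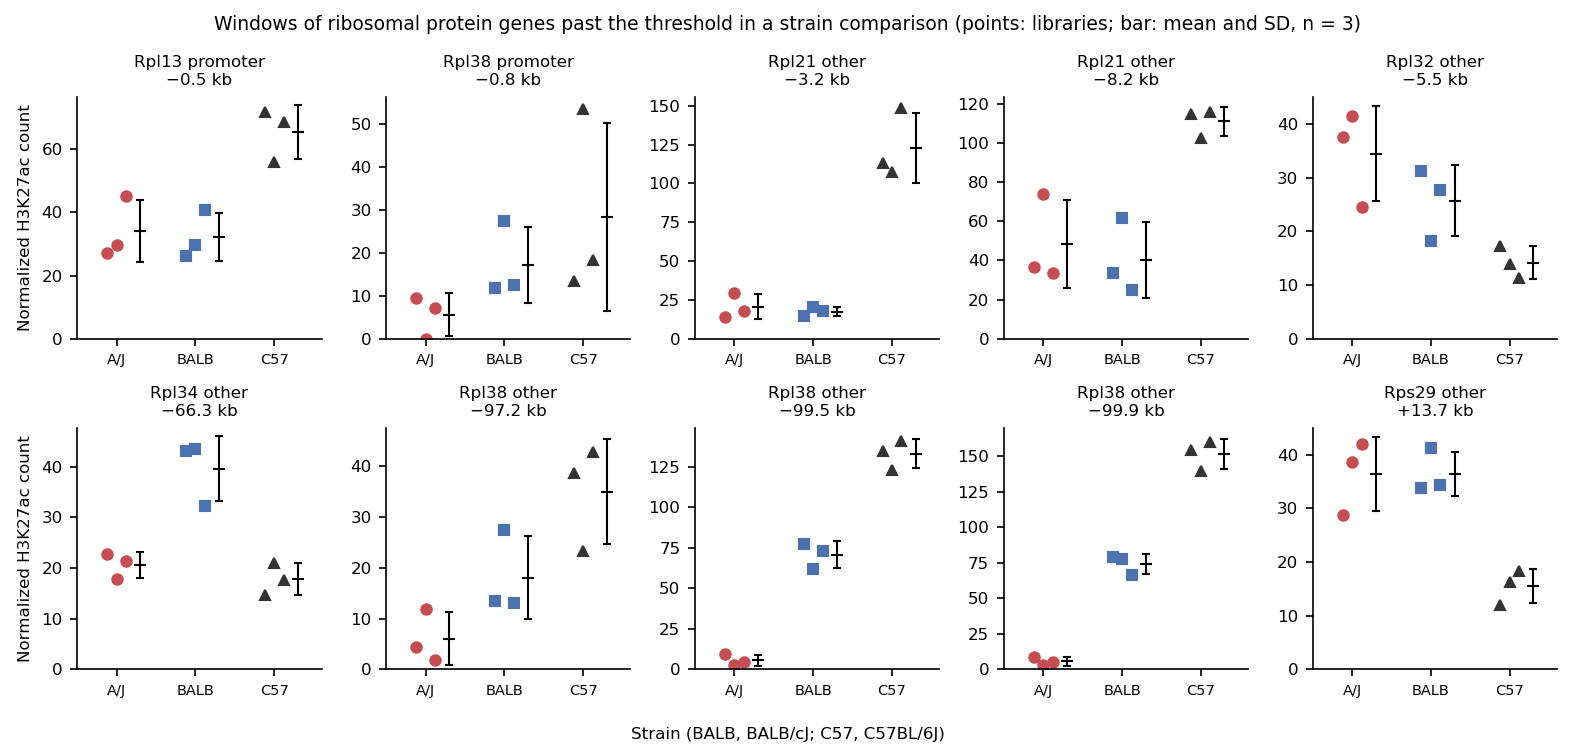
Normalized H3K27ac counts by library at the 10 ribosomal protein windows called in a strain comparison (points libraries, bar mean and SD, n = 3, each axis from 0). The Rpl38 windows near 100 kb upstream order the strains, A/J lowest at about 5.66, while the Rpl21 window 3.2 kb upstream is high only in the C57BL/6J libraries (107.1 to 148.6).

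Other gene lists of translation were set beside the ribosomal protein genes. Mitochondrial ribosomal protein promoters had a median of 97.8 over 65 windows, translation factors 240.3 over 42, ribosome biogenesis genes 153.0 over 48 and genes of TOR signalling 114.0 over 13. Counts are given in the order A/J with BALB/cJ, A/J with C57BL/6J and BALB/cJ with C57BL/6J, and higher means higher in the first-named strain. Of all promoter windows, 1.55%, 2.76% and 3.73% were called. Among mitochondrial promoters 1, 0 and 1 of 65 were called (1.54%, 0% and 1.54%), all lower. Among translation factor promoters the counts were 0, 1 and 0 of 42 (2.38% in the second, lower), and among biogenesis promoters 0 of 48 in each. Among TOR promoters they were 0, 1 and 1 of 13 (7.69% in the second and in the last, both higher), a share above that of all promoters that rests on 1 window in each. Of all other windows, 4.18%, 8.23% and 9.83% were called. The mitochondrial set had 4, 9 and 13 of 60 called there (6.67%, 15% and 21.7%), above the share of all other windows in each comparison, and 0, 6 and 10 of these were higher. Translation factors had 3, 4 and 3 of 87 (3.45%, 4.60% and 3.45%), of which 3, 4 and 0 were higher. Biogenesis genes had 5, 4 and 2 of 83 (6.02%, 4.82% and 2.41%), of which 2, 1 and 0 were higher. TOR genes had 0, 4 and 5 of 52 (0%, 7.69% and 9.62%), of which 0, 2 and 3 were higher. Fau, which encodes a ribosomal protein fused to a ubiquitin-like sequence, and Rack1, a scaffold protein of the small subunit, lie outside the name rule. Their promoter levels were 291.9 and 419.9, and neither was called.

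In the F1 hybrids both alleles share a nucleus, so an allele difference there is read as one in cis. Bias from mapping reads to 1 of the alleles, or from the direction of the cross, was not tested. Few windows could be read. Of the 286, 26 windows at 16 genes (13 promoter, 13 other) had enough allele-assigned tags, 120.5 to 972.0 over the 3 F1 libraries. Overlapping windows at Rpl29, Rps7 and Rplp0 hold the same tags, which leaves 23 distinct sets. Of the 26, 1 was called, against 7.2% of all 5234 windows. The called Rpl21 window 8150 bp upstream had 8, 15.5 and 14 BALB/cJ tags and 48.5, 41.5 and 45.5 C57BL/6J tags in F1 libraries 1, 2 and 3. The C57BL/6J allele was higher in 3 of 3 libraries, with a log2 fold change of BALB/cJ over C57BL/6J of -1.90 ± 0.44 (adjusted p = 0.00742), beside -1.59 between the strains. With the F1 library as a block it was -1.81 with adjusted p = 0.0687, and the call was also lost without F1 library 1 or 3. At the window 3169 bp upstream, under the filter, the tags were 0, 12 and 2 (BALB/cJ) and 18.5, 40 and 28 (C57BL/6J), again higher for C57BL/6J in 3 of 3. A/J is no parent of the hybrids, so the A/J differences near Rpl38 could not be followed there. The called Rpl38 windows had no allele-assigned tag, so the difference between BALB/cJ and C57BL/6J could not be followed either.

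The Rps28 promoter (37 bp past the start) had 140.0, 267.5 and 204.5 BALB/cJ tags and 88.5, 151.5 and 120.0 C57BL/6J tags. BALB/cJ was higher in 3 of 3 libraries, with a log2 fold change of 0.79 ± 0.18 (adjusted p = 0.0076), under 2-fold. That p-value is from the edgeR fit without the F1 library as a block. Between the strains the same window had 0.37 ± 0.28 (adjusted p = 0.507). No ribosomal protein window passed the test of strain against allele difference (edgeR, 2.18% of 5232 windows called), and DESeq2 called none. In the edgeR test 4 of 26 had an unadjusted p under 0.05, against 604 of the 5232. The largest of these differences were -1.16 ± 0.50 and -1.08 ± 0.52 at the overlapping windows 21.1 and 20.6 kb upstream of Rplp0 (adjusted p = 0.324 and 0.421). A test that misses the threshold at this depth does not show that strain and allele differences are equal.

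**Figure D5:**
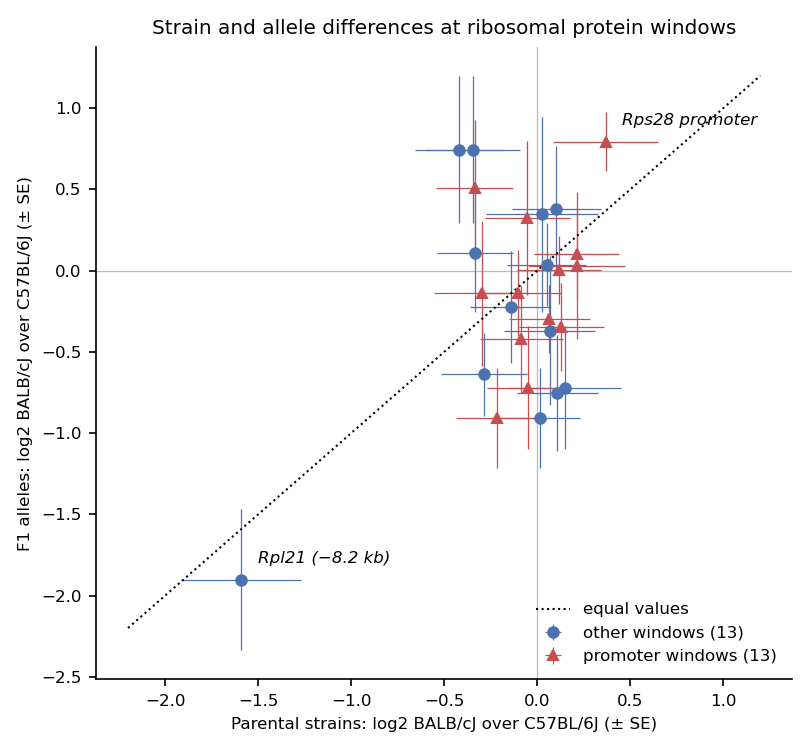
log2 ratio of BALB/cJ over C57BL/6J between F1 alleles (y axis) and between parental strains (x axis) at 26 ribosomal protein windows, with SE bars and a dotted line of equal values. Rpl21 8.2 kb upstream lies far from 0 on both axes (-1.59 and -1.90), while Rps28 stands at 0.37 and 0.79 and the other windows lie within 1 on each axis.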

How the data were processed

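H3K27ac ChIP-seq tags of 9 parental and 3 F1 libraries, and of 7 parental input libraries, were used. The authors mapped reads with Bowtie2 to strain genomes, moved them to mm10 coordinates and counted tags with HOMER in 1000-bp windows around merged ATAC-seq peaks. The deposited values are raw counts for parental libraries 1 and 3. The libraries numbered 2, the inputs and the F1 columns hold values in steps of 0.5, for which the sources used here give no reason. These deposited values were taken to be expected counts and rounded for the tests. F1 regions of 200 bp were joined to the window that held their midpoint, using the allele-specific columns, and 6 other per-sample columns were not used.

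Windows with a mean normalized count over 16 entered an edgeR 4.0.16 quasi-likelihood fit (robust, TMM, R 4.3.3) of all 3 strains, with Benjamini-Hochberg adjustment over all windows, two-sided. F1 alleles were fitted likewise, and strain against allele differences by an interaction term, both without a term for the F1 library. A window was called at adjusted p under 0.05 and over 2-fold. The fit was tested on simulated data. Alternatives were DESeq2 1.42.0, other scaling, filters at 0 and 32, another rounding, overlapping windows left out, 2 strains per fit, a replicate block and each library left out. Leaving out all libraries numbered 2 was added after seeing the data.

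Same-numbered libraries deviated together (correlations 0.227 to 0.414 over 9 pairs, from the numbers in the sample titles), so they were treated as pairs in the blocked fit. The labels do not say whether libraries came from separate animals, and p-values measure the spread between these libraries. Named windows were all those called, and the 3 promoter and 3 other windows of largest change in each comparison, 1 per gene. Members and gene lists were chosen with earlier results of these data known.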

Additional observations from a re-analysis of the deposited data

How the results depend on the processing

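Of 265 alternatives over the 17 called pairs of window and comparison, 205 kept the call and 60 lost it, 15 of these because the window was no longer tested. None of the 250 values reversed, and 4 pairs were called under every alternative. Called ribosomal protein windows between A/J and BALB/cJ numbered 2, 4 with the replicate block, 6 without all libraries numbered 2 (an alternative chosen after seeing the data) and 2 to 5 when 1 library was left out. Between A/J and C57BL/6J they numbered 8, 4 with the filter at 32, and 4 to 8 with 1 library left out. Between BALB/cJ and C57BL/6J they numbered 6, 8 with the replicate block, 9 without all libraries numbered 2, and 3 to 7 with 1 library left out. The F1 count of 1 became 3 without the filter, 0 with the filter at 32 and 0 with the replicate block. It was 0 to 1 with 1 F1 library left out. The strain against allele count of 0 became 1 (Rps6) without the filter. The replicate block changed no call beyond those given in the report. The promoter median between A/J and BALB/cJ ranged from -0.0765 to 0.1264 with 1 library left out. The promoter over other ratio (log2) of the strains, in the order A/J, BALB/cJ, C57BL/6J, was 1.31, 1.40 and 1.21 without TMM, 3.14, 3.11 and 3.05 without the filter, and 1.51, 1.70 and 1.41 with promoters defined as within 500 bp. With 1 library left out it ranged from 1.23 to 1.27, 1.22 to 1.30 and 1.07 to 1.15. The cause of these shifts was not tested. The F1 comparison had 191710 to 441065 tags per library and allele, and 26 of 286 windows were tested (80 without the filter). By the methods of the study, only reads that span a variant between BALB/cJ and C57BL/6J are assigned to an allele. The parts of depth and of variant content in this limit were not tested. Depth was also low in the libraries numbered 2 and in the C57BL/6J input.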
